A study of Mus musculus with 30 samples.

Results

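Satellite cells taken 36 h after muscle injury were compared with satellite cells of uninjured muscle, both sorted from young wild-type mice by surface antigens. The comparison used each array whose title names it, 3 arrays of activated satellite cells (ASCs) and 3 arrays of quiescent satellite cells (QSCs) out of 30 arrays in the series, and covered the 19938 genes measured by a probe set that names no other gene. The 36 h arrays held cells from hindlimb muscles injured with BaCl2, a salt that kills myofibers, and the QSC arrays held cells from uninjured hindlimb muscles at baseline. Mice of both groups were C57BL6, wildtype and 2 to 3 months old, and the sorted cells carried VCAM and lacked Sca1, CD31 and CD45. Arrays of 3 other young groups are set beside them. ASCs and QSCs positive for YFP were sorted 36 h after BaCl2 injury and without injury from Pax7CreER/+;ROSA26eYFP/+ mice given Tamoxifen, in which only cells where the Pax7-driven Cre has acted, and their progeny, carry YFP. VCAM cells were also taken 60 h after BaCl2 injury. Each group had 3 arrays, and 100 ng of total RNA was labelled for each. The labels do not say how many mice an array stands for or whether the 3 arrays of a group came from separate mice. The p-values below measure the spread between arrays of a group, pooled over all 10 groups of the series. Those groups include cells taken at 84 h and cells of mice 22 to 24 months old. The spread may be technical.

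Satellite cells lie beneath the basal lamina of the myofiber, where contact with the fiber, Notch ligands and the laminin-rich matrix hold them outside the cell cycle. Injury breaks these contacts, and the cells enlarge, rebuild their ribosome and nucleotide pools and enter a long first cell cycle while neutrophils and then macrophages clear the debris around them. Pax7 is the transcription factor that marks the lineage, and Myod1 and Myog drive its commitment and differentiation.

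Of the 19938 genes, 2641 rose (13.2%) and 1937 fell (9.72%) in 36 h ASCs, counting a gene as changed at a fold of at least 1.5 and a Benjamini-Hochberg adjusted p under 0.05 in limma. With each array centred on its median the counts were 2524 and 2066, and after quantile normalization 2355 and 2356, so the excess of rises over falls depends on the scaling. The fold was at least 4 but under 8 for 239 genes that rose and 106 that fell, at least 8 but under 16 for 91 and 21, and at least 16 for 32 and 1. The largest measured rise was that of Clec4e, a receptor of myeloid cells for mycobacterial and dead-cell products. It measured 10.69, 10.80 and 10.85 on the log2 scale in 36 h ASCs, against 5.22, 4.84 and 4.90 in QSCs, a 55.6-fold difference (adjusted p = 3e-22). Its QSC values lie under 6, the level of the filter on dim genes, and the fold of this and of other genes with values under 6 in a group is uncertain. The largest fall was that of Chrdl2, a secreted antagonist of bone morphogenetic proteins, with 7.93, 7.85 and 8.01 in 36 h ASCs, against 12.22, 12.26 and 12.23 in QSCs, 19.8-fold lower (adjusted p = 5e-26). In both the groups lay far apart. At a fold of at least 2, 1322 genes rose (6.63%) and 791 fell (3.97%). Across all genes the median change was -0.014, and the groups did not overlap for 59.4% of genes, with the 36 h arrays all above the QSC arrays for 29.6% and all below for 29.8%. The arrays of a group correlated at 0.9966 to 0.9969 at 36 h and at 0.9968 to 0.9977 in QSCs across genes, which are not independent replicates.

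**Figure D1:**
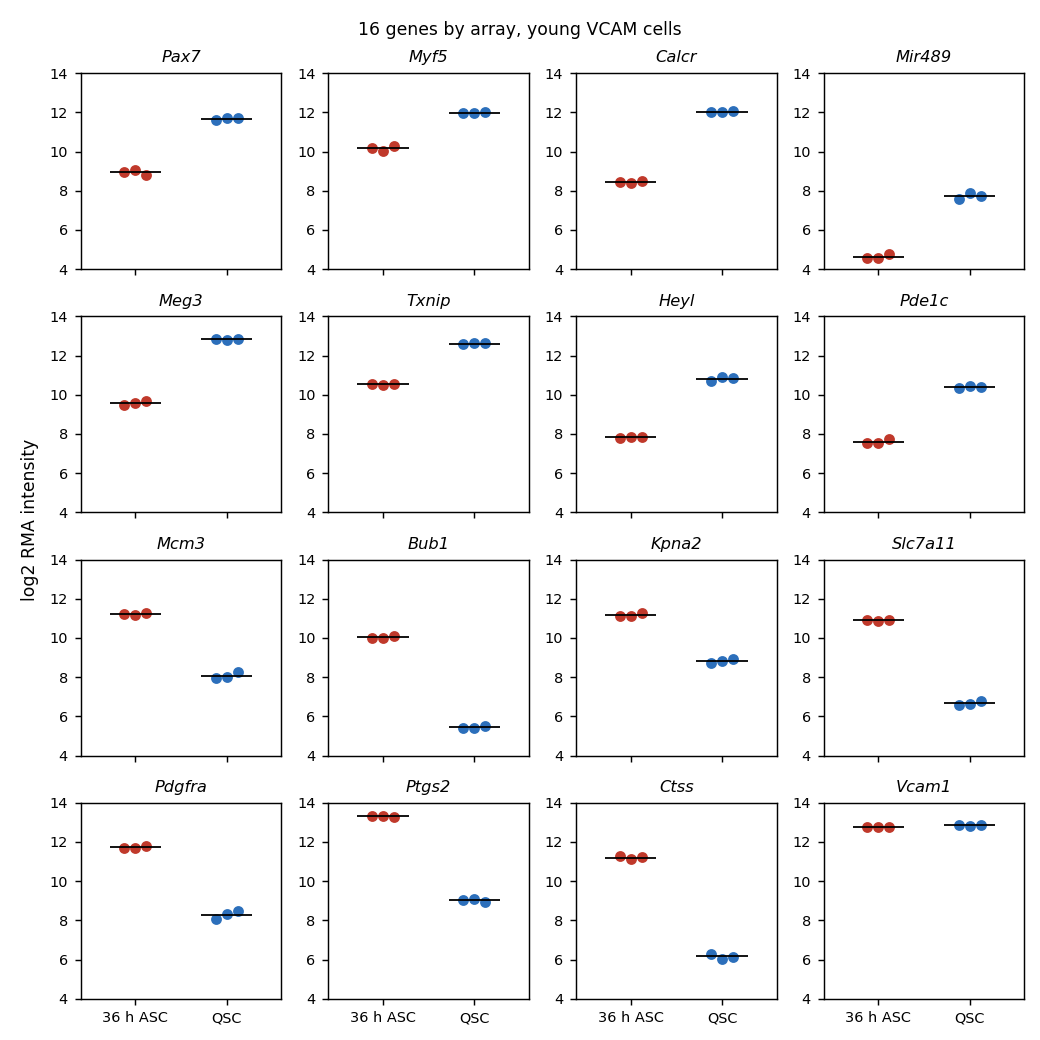
Log2 RMA intensity (vertical axis) of 16 genes in each array of 36 h ASCs (left, red) and QSCs (right, blue) of young VCAM cells, with a line at each mean of 3 arrays. For 15 of the genes the groups lie apart by more than their spread, with Pax7 near 9 in 36 h ASCs and near 12 in QSCs, and Vcam1 lies between 12.78 and 12.87 in all 6 arrays.

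The antigens of the sort were checked first. Vcam1, the adhesion molecule the cells were selected for, read 12.78 in each 36 h array, against 12.87, 12.83 and 12.86 in QSCs, and its difference of -0.07 was not called (adjusted p = 0.10). Pecam1, which encodes the excluded CD31, read 9.55, 9.54 and 9.67 in 36 h ASCs, against 9.54, 9.55 and 9.63 in QSCs, a difference of 0.02. The groups overlapped for Pecam1. Ptprc, which encodes the excluded leukocyte antigen CD45, read 9.09, 8.96 and 9.09 in 36 h ASCs, against 6.05, 6.37 and 6.31 in QSCs, and rose 6.98-fold (adjusted p = 8.3e-22). It rose although the sort selects against the protein. Ly6a (Sca1) was not measured by a probe set of its own.

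Markers of monocytes and macrophages rose with Ptprc. Of 23 measured, 22 rose and none fell, with a median change of 3.26. The markers summed, as linear intensities, to 23814 to 25159 in 36 h ASCs, against 2048 to 2172 in QSCs. Ctss, a cathepsin of antigen-presenting cells, read 11.26, 11.11 and 11.21 in 36 h ASCs, against 6.30, 6.03 and 6.15 in QSCs (32.8-fold). Mrc1, the mannose receptor of tissue macrophages, was 30.7-fold higher, and the macrophage lysozyme Lyz2 was 27-fold higher. The only marker of the list without a call was Cx3cr1, the fractalkine receptor, with 7.61, 7.49 and 7.45 in 36 h ASCs and 7.61, 7.39 and 7.45 in QSCs. Clec4d, a myeloid lectin of the list beside Clec4e, changed by 4.62 on the log2 scale. Among the largest rises outside the list were those of Lilr4b, Cd53 and Ms4a4a, membrane proteins of leukocytes, with changes of 5.29, 4.88 and 4.83. In bulk RNA of this kind, more cells of a type and more RNA per cell cannot be told apart, and the part of such cells in any result below was not tested.

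Other marker lists moved less or the other way. Lymphocyte markers summed to 515 to 596 in 36 h ASCs, against 560 to 607 in QSCs, and none of 9 was called. Neutrophil markers summed to 1070 to 1131 in 36 h ASCs, against 873 to 948 in QSCs. Of 13 neutrophil markers 3 were higher (23.1%), against 13.2% of all genes. Of 14 endothelial markers 4 fell and 1 rose, and their sum was 5637 to 5852 in 36 h ASCs, against 7927 to 8277 in QSCs. Tek, the receptor of endothelial angiopoietins, fell most, by 1.89. Of 13 pericyte and smooth muscle markers 8 fell and 1 rose, with sums of 12814 to 13782 in 36 h ASCs, against 22081 to 23069 in QSCs. Tenocyte markers stood out in the other direction. Of 7 measured, 6 rose, and their sum was 33492 to 33832 in 36 h ASCs, against 4766 to 5090 in QSCs. Thbs4, a thrombospondin of tendon and regenerating muscle, read 14.05, 14.08 and 14.06 in 36 h ASCs, against 10.79, 10.90 and 10.87 in QSCs. Of 12 fibro-adipogenic and fibroblast markers 7 rose and 1 fell. Their sum was 61981 to 63513 in 36 h ASCs, against 30904 to 31511 in QSCs. The sums are of different genes and numbers of genes, so they compare arrays and not lists. Pdgfra, the receptor that defines fibro-adipogenic progenitors, read 11.71, 11.71 and 11.78 in 36 h ASCs, against 8.07, 8.30 and 8.5 in QSCs (10.9-fold), and Dpt, a dermatopontin of quiet fibroblasts, fell by 2.17.

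Most genes that define satellite cells fell. Of 24 sort and defining markers 14 fell and 1 rose, with a median change of -0.84. Pax7 read 8.98, 9.05 and 8.83 in 36 h ASCs, against 11.60, 11.70 and 11.73 in QSCs, 6.61-fold lower with a standard error of 0.064 on the log2 scale (adjusted p = 1.7e-22). Myf5, which marks committed satellite cells, read 10.21, 10.04 and 10.30 in 36 h ASCs, against 11.96, 11.97 and 12.03 in QSCs (3.49-fold lower). The groups were apart for both. Chodl, a lectin-like membrane protein, read 10.22, 10.25 and 10.30 in 36 h ASCs, against 13.04, 13.04 and 12.99 in QSCs. Cdh15, the M-cadherin that joins the cell to its fiber, read 9.28, 9.27 and 9.16 in 36 h ASCs, against 10.71, 10.76 and 10.81 in QSCs (2.88-fold lower). Msc, a repressor of myogenic E-box factors, fell by 2.28.

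Among the other lineage genes, Myod1 read 11.66, 11.67 and 11.69 in 36 h ASCs, against 12.10, 12.04 and 12.11 in QSCs, and its change of -0.41 lay under the fold threshold (adjusted p = 1.6e-09). Myog changed by 0.52, Cd34, a sialomucin of quiescent cells, by -0.32 and Itga7, the laminin-binding integrin of the lineage, by 0.15, also under the threshold. Met, the receptor of hepatocyte growth factor that brings satellite cells into the cycle, read 11.83, 11.82 and 11.81 in 36 h ASCs, against 10.96, 11 and 10.94 in QSCs, and rose 1.81-fold. Among 35 myogenic regulators and partners 12 fell and 4 rose. Twist1, a repressor of myogenic factors known from mesenchyme, read 8.68, 8.66 and 9.11 in 36 h ASCs, against 6.86, 6.96 and 6.89 in QSCs. Meox1, a homeobox factor of somites, rose by 1.88.

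Several of the largest falls encode membrane and secreted proteins. Ptprz1, a receptor phosphatase known from glia, read 5.98, 5.86 and 6.24 in 36 h ASCs, against 9.67, 9.83 and 9.95 in QSCs (13.9-fold lower). Clmn, a calponin-like membrane protein, was 13.8-fold lower, Kcnn3, a calcium-activated potassium channel, 11.6-fold, and the peptide genes Edn3 (endothelin) and Nppc (natriuretic peptide) 11.5- and 10.8-fold. Zim1 and Peg3, neighbouring imprinted zinc finger genes, were 11.7-fold and 4.75-fold lower. Prox1, a homeobox factor, read 7.41, 7.63 and 7.98 in 36 h ASCs, against 10.82, 10.76 and 10.77 in QSCs. For each of these genes the groups did not overlap. Calcr, the calcitonin receptor that keeps satellite cells in their niche, fell as far, with 8.45, 8.41 and 8.52 in 36 h ASCs, against 12, 12.01 and 12.07 in QSCs, a change of -3.56 (adjusted p = 2.2e-22).

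A pair of microRNA genes lies within Calcr. Mir489, whose mature form holds mouse satellite cells in quiescence, read 4.59, 4.56 and 4.78 in 36 h ASCs, against 7.60, 7.90 and 7.73 in QSCs (8.58-fold lower). Mir653, its neighbour, chosen after its values were seen, read 5.0, 5.32 and 4.98 in 36 h ASCs, against 8.03, 8.23 and 8.29 in QSCs (8.47-fold lower). The host gene and both microRNA genes thus changed by -3.56, -3.10 and -3.08 in VCAM cells. In YFP cells Mir489 changed by -0.72. Arrays of this type bind precursor or host RNA at a microRNA gene, and the mature forms were not measured. Over 296 microRNA genes measured, 71 fell, 3 rose and the median change was -0.18. Mir15b, which lies within Smc4 and was chosen after its values were seen, fell by 1.00 while Smc4, a condensin subunit, rose by 1.27.

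The largest block of microRNA genes that fell lies on chromosome 12, in the imprinted interval between Dlk1 and Dio3, where the maternal copy gives rise to the noncoding RNAs Meg3 and Rian and a long array of microRNAs. All 40 microRNA genes measured there fell, with changes from -3.23 to -0.64 and a median of -1.98, whereas the 256 microRNA genes measured elsewhere had a median of -0.10, 31 falls and 3 rises. Meg3 read 9.49, 9.57 and 9.69 in 36 h ASCs, against 12.85, 12.82 and 12.83 in QSCs. Rian read 7.80, 7.73 and 7.90 in 36 h ASCs, against 11.31, 11.29 and 11.31 in QSCs. Meg3 and Rian were thus 9.54-fold and 11.3-fold lower. Mir380 fell furthest of the microRNA genes, with 5.85, 5.71 and 5.96 in 36 h ASCs, against 9.08, 9.10 and 9.03 in QSCs. Mir379 and Mir382 were 8.19-fold and 6.30-fold lower. The genes at the ends of the interval were not called. Dlk1, a Notch-related membrane protein, changed by -0.03 and Dio3, which inactivates thyroid hormone, by -0.16, while the retrotransposon-derived Rtl1 fell by 0.66. Dlk1, Dio3 and Rtl1 were chosen after their values were seen.

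The sequences below are those of mature microRNAs from Calcr and from the interval, and of families that share a seed, the bases 2 to 8 by which a microRNA pairs with its targets. They are RefSeq sequences, 5′ to 3′, with the seed in capitals. Mir489 and Mir653 lie within Calcr, and Mir127, Mir379 and Mir382 in the Dlk1 to Dio3 interval. Mir127, chosen after its values were seen, changed by -1.96.
miR-489-3p: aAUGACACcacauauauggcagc
miR-653-5p: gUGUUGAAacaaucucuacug
miR-127-3p: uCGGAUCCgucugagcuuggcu
miR-379-5p: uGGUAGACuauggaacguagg
miR-382-5p: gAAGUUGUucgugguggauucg
No seed is shared among these 5. Outside the interval the genes that fell included some with a common seed, chosen after their values were seen. Only genes that fell were grouped by seed, so any members of the same families that did not fall are not given. Mirlet7f-1, Mirlet7a-1 and Mirlet7e changed by -1.64, -0.72 and -0.67 and share GAGGUAG.
let-7f-5p: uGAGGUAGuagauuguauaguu
let-7a-5p: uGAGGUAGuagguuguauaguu
let-7e-5p: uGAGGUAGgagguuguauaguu
Mir100, Mir99b and Mir99a changed by -1.54, -0.90 and -0.60 and share ACCCGUA.
miR-100-5p: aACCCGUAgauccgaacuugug
miR-99b-5p: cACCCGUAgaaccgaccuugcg
miR-99a-5p: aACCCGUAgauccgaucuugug
Mir222 and Mir221, neighbours on chromosome X whose targets include the kinase inhibitor Cdkn1b, changed by -1.0 and -0.73 and share GCUACAU.
miR-222-3p: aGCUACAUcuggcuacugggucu
miR-221-3p: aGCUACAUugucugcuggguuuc

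**Figure D2:**
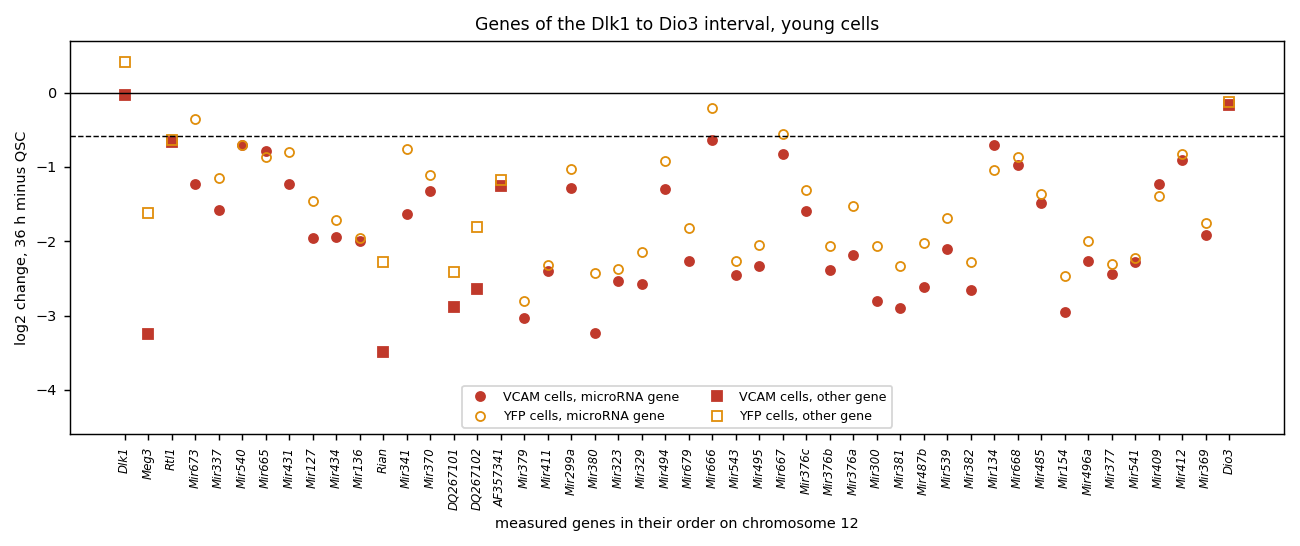
Log2 change, 36 h ASCs minus QSCs (vertical axis), of each measured gene of the Dlk1 to Dio3 interval in its order on chromosome 12 (horizontal axis), for VCAM cells (filled) and YFP cells (open), with circles for microRNA genes, squares for other genes and a dashed line at a fold of 1.5. All 40 microRNA genes lie below the dashed line in VCAM cells and 37 do in YFP cells, and Dlk1 and Dio3 at the ends lie at -0.03 and -0.16 in VCAM cells.

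Cell cycle genes were read from G1 to mitosis, and in G1 falls outnumbered rises. There the kinase Cdk6 read 10.95, 10.91 and 10.91 in 36 h ASCs, against 8.83, 8.77 and 9.02 in QSCs (4.15-fold), its cyclin partner Ccnd2 rose 3.19-fold and Cdk4 rose 2.64-fold. Of 11 genes of the G1 list 3 rose and 5 fell, among them Mycn, a Myc family factor, which read 7.15, 7.23 and 7.18 in 36 h ASCs, against 8.24, 8.37 and 8.26 in QSCs. Of 6 inhibitors of cyclin-dependent kinases, Cdkn1b, which restrains cyclin E kinase, read 9.35, 9.38 and 9.40 in 36 h ASCs, against 10.19, 10.31 and 10.35 in QSCs, and fell 1.88-fold. The others were not called, with a change of 0.12 for Cdkn1c. Of 20 E2F factors and pocket proteins 11 rose and 2 fell. E2f8, an atypical E2F of S phase, rose by 2.89 and the pocket protein Rbl1 by 2.36. Among S phase and mitotic cyclins and kinases 11 of 14 rose, with Cdk1, the mitotic kinase, at 10.29, 10.38 and 10.33 in 36 h ASCs, against 6.79, 6.92 and 6.93 in QSCs (10.9-fold).

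Genes of DNA synthesis rose almost as whole lists. Of 25 genes that license and fire origins 21 rose, of 24 at the replication fork 24 rose, of 19 for nucleotide supply 18 rose and of 22 for homologous recombination and Fanconi repair 16 rose, and in none of these lists did a member fall. Mcm3, a subunit of the replicative helicase, read 11.24, 11.17 and 11.30 in 36 h ASCs, against 7.96, 8.01 and 8.24 in QSCs (8.95-fold, adjusted p = 1.4e-21). Mcm6 of the same ring rose by 2.96, and Cdc6, which loads it, by 2.97. Uhrf1, which brings DNA methylation to new strands, read 10.39, 10.42 and 10.50 in 36 h ASCs, against 7.31, 7.07 and 7.09 in QSCs. Rrm2, the regulated subunit of ribonucleotide reductase, rose 9.58-fold and Chek1, the replication checkpoint kinase, 7.21-fold.

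Genes of mitosis rose too. All 25 genes of spindle motors and cytokinesis rose, with a median change of 2.72, as did 21 of 23 of the centromere and kinetochore, with a median of 2.00. Bub1, the kinase of the spindle checkpoint, read 10.01, 10.01 and 10.11 in 36 h ASCs, against 5.42, 5.43 and 5.53 in QSCs (24-fold, adjusted p = 1.1e-26). Nuf2 of the kinetochore rose 14.3-fold, Anln of the cleavage furrow 13.2-fold, Top2a, which untangles sister chromatids, 12.9-fold, and Ncapg of condensin 12.4-fold. Of 21 checkpoint and anaphase genes 11 rose and 1 fell, with a median of 0.63. The one that fell was Pttg1 (securin), chosen after its values were seen, with 8.39, 8.11 and 8.26 in 36 h ASCs, against 8.99, 8.95 and 9.0 in QSCs.

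**Figure D3:**
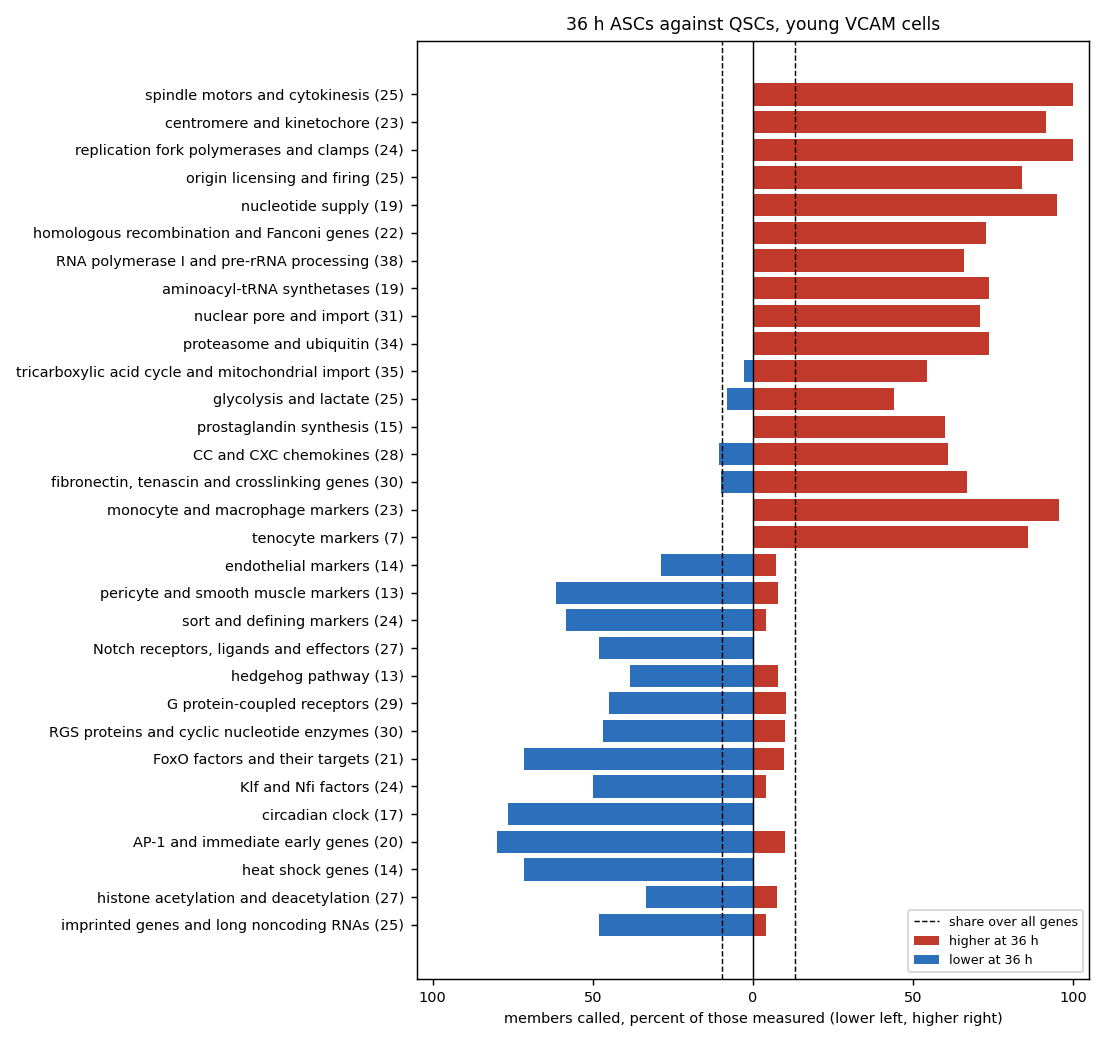
Percent of the measured members of 31 gene lists (number measured in brackets) that were higher (red, to the right) or lower (blue, to the left) in 36 h ASCs than in QSCs of young VCAM cells, with dashed lines at the shares over all genes, 13.2% and 9.72%. The lists of the fork and of spindle motors reach 100%, and the lists of immediate early genes and the clock lie at 80% and 76.5% on the lower side.

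The promoters of these genes were searched on both strands for sequence motifs known from cell cycle genes, in windows of 250 bases before to 50 bases after the RefSeq start. TTTGAA, the cell cycle homology region (CHR) bound by DREAM and MuvB complexes, was found in 58.6% of 58 promoters of mitotic genes that rose, against 17.9% of all 32851 promoters and 18.2% of 66 promoters of replication genes that rose. CCAAT, the NF-Y box, was in 74.1% of the mitotic, 51.5% of the replication and 37.4% of all promoters. An E2F site, written as TTTCCCGC, TTTGGCGC, TTTCGCGC or TTTGCCGC, was in 27.3% of the replication, 6.90% of the mitotic and 2.26% of all promoters. The lists were chosen with these genes known to rise, and a match is a description of the letters, not of a bound site. The following stretches of 100 bases end at or near the start site and show a CHR, in capitals, in genes of the spindle and kinetochore, on build GRCm38.p6 in the direction of the gene.
Prc1, chr7:80294376-80294475, plus strand: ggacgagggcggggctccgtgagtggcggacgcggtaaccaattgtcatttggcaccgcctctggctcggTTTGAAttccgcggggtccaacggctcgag
Kif15, chr9:122950981-122951080, plus strand: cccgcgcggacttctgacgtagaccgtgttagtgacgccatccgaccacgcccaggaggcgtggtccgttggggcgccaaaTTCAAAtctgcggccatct
Kif11, chr19:37376282-37376381, plus strand: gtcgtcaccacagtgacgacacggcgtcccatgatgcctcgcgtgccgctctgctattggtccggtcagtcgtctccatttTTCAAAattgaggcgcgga
Cenpn, chr8:116921640-116921739, plus strand: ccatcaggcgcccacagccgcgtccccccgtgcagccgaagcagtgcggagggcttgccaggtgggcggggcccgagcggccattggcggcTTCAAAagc
The next stretches show an E2F site in capitals in genes of origins and forks.
Mcm6, chr1:128359706-128359805, minus strand: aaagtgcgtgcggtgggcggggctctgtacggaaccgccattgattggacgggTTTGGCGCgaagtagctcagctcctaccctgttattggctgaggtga
Rfc3, chr5:151651209-151651308, minus strand: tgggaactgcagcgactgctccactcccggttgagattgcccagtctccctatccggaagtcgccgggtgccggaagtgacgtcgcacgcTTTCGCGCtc
Orc1, chr4:108579354-108579453, plus strand: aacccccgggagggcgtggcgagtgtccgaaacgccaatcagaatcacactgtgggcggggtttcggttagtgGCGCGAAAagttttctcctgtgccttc
Gins3, chr8:95633459-95633558, plus strand: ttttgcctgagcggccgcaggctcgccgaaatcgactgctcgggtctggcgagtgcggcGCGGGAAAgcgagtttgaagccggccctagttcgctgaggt
The motifs in these stretches begin between 47 and 9 bases before the start. Prc1, Kif15, Kif11 and Cenpn rose by 3.36, 3.32, 3.20 and 2.39, and Mcm6, Rfc3, Orc1 and Gins3 by 2.96, 1.82, 1.43 and 0.69. Kif11, Cenpn, Rfc3, Orc1 and Gins3 were chosen because their promoters hold the motif near the start, with their values seen.

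Genes for ribosomes, tRNA charging, nuclear import and protein turnover rose in most members. Of 38 genes of RNA polymerase I and pre-rRNA processing 25 rose and none fell (median 0.95). Wdr12, a factor of the large ribosomal subunit, read 10.31, 10.29 and 10.45 in 36 h ASCs, against 8.54, 8.55 and 8.65 in QSCs (3.41-fold), and Dkc1, the pseudouridine synthase of box H/ACA particles, rose 3.19-fold. Of 19 aminoacyl-tRNA synthetases 14 rose, with Vars and Mars1, which charge valine and methionine, at 1.69 and 1.48. Of 31 nuclear pore and import genes 22 rose. Kpna2, an importin alpha, read 11.13, 11.13 and 11.26 in 36 h ASCs, against 8.71, 8.85 and 8.92 in QSCs (5.09-fold). Of 34 proteasome and ubiquitin genes 25 rose, led by Psmc1 and Psmd7 of the regulatory particle, with 1.53 and 1.48. Of 40 splicing factors 18 rose and none fell, Prpf31 of the tri-snRNP most, by 2.04. Of 27 translation initiation factors 9 rose and 1 fell, and of 18 genes of the CCT chaperonin and cytosolic folding 9 rose and 1 fell.

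Of 14 amino acid transporters 3 rose (21.4%) and 3 fell (21.4%), against 13.2% and 9.72% of all genes. Slc7a11 of this list, which imports cystine for glutathione, read 10.90, 10.87 and 10.92 in 36 h ASCs, against 6.59, 6.63 and 6.81 in QSCs (18.6-fold, adjusted p = 4.5e-27). Asns, asparagine synthetase, read 11.30, 11.29 and 11.31 in 36 h ASCs, against 7.62, 7.76 and 7.97 in QSCs (11.5-fold). The groups were far apart for both. Of 17 genes of the pentose phosphate, serine and one-carbon pathways 10 rose and none fell. Among them Pgd of the oxidative pentose phosphate branch rose by 2.39, Shmt2, the mitochondrial serine hydroxymethyltransferase, by 2.31 and Phgdh, the first enzyme of serine synthesis, by 1.99. Of 25 glycolytic genes 11 rose and 2 fell, with Eno3 at 2.32, Pgam1 at 2.19, Pgk1 at 1.76 and the glucose transporter Slc2a1 at 1.43. The pair that fell were Pdk2 and Pdk4, kinases that shut pyruvate out of the mitochondrion, chosen after their values were seen, with changes of -1.44 and -1.42. Of 35 genes of the tricarboxylic acid cycle and mitochondrial import 19 rose and 1 fell, led by the import pore Tomm40 and by Idh3a. In fatty acid oxidation 4 of 20 rose (20%) and 1 fell (5%), against 13.2% and 9.72% of all genes. Gpx3, a secreted glutathione peroxidase, read 10.73, 10.73 and 10.81 in 36 h ASCs, against 13, 13.01 and 13.01 in QSCs, and the copper protein Cp fell by 2.24, while the transferrin receptor Tfrc rose by 1.95.

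Notch genes fell or were not called. Of 27 measured 13 fell and none rose. Among the effectors, the transcriptional repressor Heyl read 7.82, 7.87 and 7.85 in 36 h ASCs, against 10.69, 10.89 and 10.88 in QSCs (7.87-fold lower), and Hes1 read 8.80, 8.80 and 9.01 in 36 h ASCs, against 11.27, 11.30 and 11.32 in QSCs (5.38-fold lower). Hey1 fell by 2.21. Of the receptors, Notch3, which is also on the pericyte list above, fell by 2.08. Of the modifiers the ubiquitin ligase Dtx4 fell by 2.48. Promoter sequences were at hand for 21 genes of the list, among them 8 that fell. TGGGAA, the core of the site of the Notch partner RBPJ, was in 25.9% of their 27 promoters, against 25.6% of all promoters. For the 8 genes that fell it was in 1 of 11 promoters (9.09%).

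Growth factor receptors changed in both directions. Fgfr4, a fibroblast growth factor receptor of satellite cells, read 10.14, 10.18 and 10.20 in 36 h ASCs, against 12.46, 12.47 and 12.44 in QSCs (4.87-fold lower). Ret, the receptor of GDNF ligands, fell by 2.01. Axl, a receptor for Gas6 and dying cells, read 11.27, 11.29 and 11.33 in 36 h ASCs, against 9.42, 9.43 and 9.46 in QSCs (3.64-fold higher). Of 35 receptor genes and partners 7 rose (20%) and 7 fell (20%), against 13.2% and 9.72% of all genes. Downstream, of 22 feedback genes of the Ras-MAPK pathway 8 fell and 1 rose. Spry1, which holds back FGF signals and returns cells to quiescence, read 9.08, 9.03 and 9.14 in 36 h ASCs, against 11.74, 11.78 and 11.78 in QSCs (6.42-fold lower), and the phosphatase Dusp8 fell by 1.91.

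Bone morphogenetic protein ligands were split. Bmp6 and Bmp4 changed by -2.25 and -2.01, and Bmp5 read 11.14, 11.19 and 11.24 in 36 h ASCs, against 9.06, 9.03 and 9.05 in QSCs (4.41-fold higher). Of 28 genes of the pathway 6 rose (21.4%) and 6 fell (21.4%), against 13.2% and 9.72% of all genes. Of 13 hedgehog genes 5 fell and 1 rose, with Cdon, a coreceptor that also promotes myogenesis, at -1.89, the factor Gli2 at -1.80 and the coreceptor Gas1 at -1.73. Guidance genes moved both ways, 8 up (25.8%) and 8 down (25.8%) of 31. The secreted Sema3c and Sema3a, which repel axons, rose by 2.14 and 2.10, and the membrane-bound Sema6a and Rgma changed by -2.04 and -2.0. Among Wnt genes 5 of 35 rose (14.3%) and 3 fell (8.57%), near the 13.2% and 9.72% of all genes. Of those that fell, the receptor Fzd4 changed by -1.86 and the R-spondin receptor Lgr4 by -1.41.

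Many genes of cyclic nucleotide signalling fell, as did Calcr, a receptor that raises cyclic AMP. Of 30 RGS proteins and cyclic nucleotide enzymes 14 fell and 3 rose, and of 29 G protein-coupled receptors 13 fell and 3 rose. Pde1c, a phosphodiesterase opened by calmodulin, read 7.53, 7.56 and 7.73 in 36 h ASCs, against 10.34, 10.43 and 10.42 in QSCs (6.91-fold lower). The phosphodiesterases Pde7b and Pde3a changed by -2.55 and -2.28. Rgs1, a brake on chemokine receptors in leukocytes, rose by 2.87. Among the receptors, S1pr3 for sphingosine phosphate changed by -1.75, P2ry1 for ADP by -1.66 and Npy1r for neuropeptide Y by -1.45.

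Of 21 FoxO factors and targets 15 fell and 2 rose (median -0.95). Txnip, which restrains glucose uptake and thioredoxin, read 10.57, 10.48 and 10.53 in 36 h ASCs, against 12.58, 12.62 and 12.63 in QSCs (4.24-fold lower). Irs2, the insulin receptor substrate, changed by -1.79, Sesn1, a brake on the mTOR kinase, by -1.45 and Foxo1 itself by -1.28. Of 24 Klf and Nfi factors and their kin 12 fell and 1 rose. Zbtb16, a glucocorticoid-induced repressor, read 8.63, 8.63 and 8.76 in 36 h ASCs, against 10.58, 10.61 and 10.60 in QSCs, and Nfia read 9.80, 9.81 and 9.85 in 36 h ASCs, against 11.63, 11.75 and 11.73 in QSCs. The groups were apart for both, with changes of -1.92 and -1.88. Of 25 antiproliferative and mRNA decay genes 6 fell and none rose, led by Btg2, with 10.43, 10.51 and 10.53 in 36 h ASCs, against 12.67, 12.67 and 12.60 in QSCs.

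Clock genes fell as well, 13 of 17, and none rose (median -1.03). Dbp, an output factor of the clock, read 7.69, 7.64 and 7.31 in 36 h ASCs, against 9.56, 9.47 and 9.44 in QSCs (3.84-fold lower), and Nfil3, which opposes it at the same sites, fell by 1.87. Per1 and Rora changed by -1.36 and -1.35. Activators and repressors of the loop thus fell together. The hour of day at which cells were taken is not given in the sources used here, and its part was not tested.

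Immediate early and heat shock genes, which dissociation of tissue is known to induce, were lower in 36 h ASCs than in QSCs. Of 20 AP-1 and immediate early genes 16 fell and 2 rose (median -1.41), and of 14 heat shock genes 10 fell and none rose (median -1.23). Fos read 11.42, 11.44 and 11.47 in 36 h ASCs, against 13.39, 13.46 and 13.42 in QSCs (3.96-fold lower). The small chaperone Hspb1 read 11.04, 11 and 11.15 in 36 h ASCs, against 13.46, 13.39 and 13.42 in QSCs (5.13-fold lower), and its partner Bag3 fell by 2.06. Maff and Ier2 changed by -2.27 and -2.05. Both groups went through the same dissociation and sort, and the part of isolation in these differences was not tested.

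Chromatin enzymes changed in both directions, and over all genes 13.2% rose and 9.72% fell. Of 13 DNA methylation genes 3 rose (23.1%) and 2 fell (15.4%), and of 24 Polycomb genes 2 rose (8.33%) and 6 fell (25%). Of 35 SWI/SNF and histone chaperone genes 8 rose (22.9%) and 9 fell (25.7%). Dnmt1, the maintenance DNA methyltransferase, read 10.48, 10.54 and 10.52 in 36 h ASCs, against 8.20, 8.30 and 8.44 in QSCs (4.61-fold higher). Tet1, which oxidises methylcytosine, read 6.75, 6.77 and 6.76 in 36 h ASCs, against 8.96, 9.28 and 9.12 in QSCs (5.14-fold lower), and Tet2 was 2.49-fold lower. In the Polycomb group, Ezh2, the methyltransferase of dividing cells, rose by 0.94 and Ezh1, its counterpart in resting cells, fell by 1.42. The pairs Dnmt1 and Tet1, and Ezh2 and Ezh1, thus moved in opposite directions. Of 36 Trithorax and other histone methylation enzymes 12 fell and 6 rose, the risers led by Nsd2 with 1.89 and Kmt5a with 1.66. Of 27 acetylation enzymes 9 fell and 2 rose, with Hat1, which acetylates new histones, at 2.44 and Kat2b at -1.49. The chromatin remodeller Hells and the histone chaperone Asf1b, both of S phase, rose by 3.76 and 3.16, and Smarca2, an ATPase of SWI/SNF, fell by 1.19.

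Inflammatory mediators rose beside the macrophage markers given above, whose part was not tested. Of 28 CC and CXC chemokines 17 rose and 3 fell. Ccl3, a chemoattractant of monocytes, read 11.79, 11.83 and 11.86 in 36 h ASCs, against 6.10, 6.13 and 6.14 in QSCs (52.2-fold, adjusted p = 4.3e-29). Ccl6, Cxcl5 and Pf4 changed by 5.17, 4.91 and 4.75 on the log2 scale. The 3 that fell, chosen after their values were seen, were Ccl19, Cxcl9 and Cxcl10, of which Cxcl9 and Cxcl10 are induced by interferon gamma, with changes of -0.85, -0.86 and -1.38. Of 32 interleukins, tumour necrosis factor genes and their receptors 17 rose and 3 fell. Il33, an alarmin of stromal cells, read 11.93, 11.83 and 11.91 in 36 h ASCs, against 7.47, 7.61 and 7.42 in QSCs (21.0-fold), and Il1b rose 12.2-fold. Of 15 genes for prostaglandins and their kin 9 rose and none fell. Ptgs2, the inducible cyclooxygenase, read 13.32, 13.35 and 13.26 in 36 h ASCs, against 9.02, 9.08 and 8.96 in QSCs (19.6-fold), and Pla2g4a, which frees its substrate, rose 14.3-fold. In the signal pathways falls outnumbered rises. Of 21 JAK-STAT genes 9 fell (42.9%) and 2 rose (9.52%). Of 27 NF-kappaB pathway genes 8 fell (29.6%) and 5 rose (18.5%), with the subunit Rela 2.77-fold lower. Of 19 interferon response genes 4 fell (21.1%) and 3 rose (15.8%), against 9.72% and 13.2% of all genes, with Irf1 at -1.43. The complement receptors C3ar1 and C5ar1, both of myeloid cells, rose by 4.54 and 4.02.

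Genes of the provisional matrix of a wound mostly rose. Of 30 fibronectin, tenascin and crosslinking genes 20 rose and 3 fell. Tnc, the tenascin of healing tissue, rose 11-fold, and Has2, which makes hyaluronan, rose 11.5-fold. Lox, which crosslinks collagen, read 12.53, 12.53 and 12.55 in 36 h ASCs, against 9.20, 9.22 and 9.18 in QSCs (10.1-fold). The groups were far apart for Lox. Prg4 (lubricin) was 30.5-fold and the proteoglycan Lum 16.1-fold higher. Of 31 proteases and inhibitors 16 rose and 4 fell, with the inhibitor Timp1 at 12.60, 12.59 and 12.63 in 36 h ASCs, against 8.46, 8.62 and 8.61 in QSCs (16.5-fold), and the protease Mmp3 17.9-fold higher. Basement membrane genes ran the other way. Of 19 laminin and linker genes 8 fell and 4 rose, with Lama3 at 7.07, 6.88 and 6.98 in 36 h ASCs, against 9.49, 9.64 and 9.69 in QSCs (6.18-fold lower), Sgca of the dystrophin complex at -1.83 and Lama4 of vessels at 1.64. Of 26 collagens 10 rose, Col8a1 and Col6a3 most, and 2 fell, of which Col15a1, a collagen of basement membrane zones, fell by 2.28.

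Adhesion genes moved in both directions. Of 41 integrins, syndecans and cadherins 15 rose and 6 fell. Cdh11, a cadherin of mesenchyme, read 10.94, 11 and 10.88 in 36 h ASCs, against 7.70, 7.89 and 7.92 in QSCs (8.60-fold), and the fibronectin receptor subunit Itga5 rose by 1.82. In fusion and sarcomere genes 5 of 26 rose (19.2%) and 3 fell (11.5%), not far from the 13.2% and 9.72% of all genes. Myof, a membrane repair protein of fusing myoblasts, rose most. It read 11.04, 11.11 and 11.10 in 36 h ASCs, against 8.21, 8.36 and 8.31 in QSCs (6.90-fold). Of 22 adult myofiber genes 4 fell (18.2%) and 1 rose (4.55%), with a median change of 0.02. The glycogen phosphorylase Pygm of this list fell by 2.35, and the riser was Eno3, given above with glycolysis.

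The same times were compared in YFP cells, which share no array with the VCAM cells. The sorts stood apart in Xist, the RNA of the inactive X chromosome, which read 11.07 to 11.48 in the 6 YFP arrays and 5.12 to 5.36 in the 6 VCAM arrays. Uty, a gene of the Y chromosome, read 7.28, 7.29 and 7.37 in YFP 36 h ASCs, against 9.04, 9.02 and 9.14 in YFP QSCs, and 9.03, 9.06 and 9.19 in VCAM 36 h ASCs, against 9.76, 9.90 and 9.85 in VCAM QSCs. Uty and Xist were chosen after their values were seen, the sex of the mice is not given in the sources used here, and its part in the differences below was not tested. In YFP cells 2021 genes rose (10.1%) and 1225 fell (6.14%) in 36 h ASCs. Of genes that rose in VCAM cells 61.5% rose in YFP cells, and of those that rose in YFP cells 80.3% rose in VCAM cells, 1623 genes in all. For falls the shares were 48.4% and 76.5%, 937 genes. With each array centred on its median, the YFP rises and falls became 1673 and 1585, and after quantile normalization 1763 and 1513, so the size of the excess of rises depends on the scaling in YFP cells as well. Spindle motors rose in 25 of 25 in VCAM and 25 of 25 in YFP cells. Origin genes rose in 21 and 22 of 25 and nucleotide supply genes in 18 and 14 of 19. The G1 list of 11 differed in direction, with 3 rises and 5 falls in VCAM cells and 4 rises and 2 falls in YFP cells. The macrophage markers rose in YFP cells too, in 22 of 23, with sums of 19979 to 20464 in 36 h ASCs, against 2084 to 2165 in QSCs.

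The difference between the responses, VCAM minus YFP, was tested in the same model, and 892 genes were higher (4.47%) and 920 lower (4.61%). With arrays centred on their medians these counts were 1142 and 738. Pax7 fell by 0.95 in YFP cells, where it read 10.04, 9.99 and 10.05 in 36 h ASCs, against 10.91, 10.94 and 11.09 in QSCs, and its response was lower in VCAM cells by 1.77 (adjusted p = 5.7e-14). Mir489 changed by -3.10 in VCAM cells and by -0.72 in YFP cells, a difference of -2.38. Its host gene Calcr is not among the named genes listed below with a difference of at least 1.5. The Notch effector Heyl differed by -1.99 and 11 of 27 Notch genes had the lower response in VCAM cells. Ribosome genes had the higher one. Of the 38 of RNA polymerase I and pre-rRNA processing 25 rose in VCAM and 8 in YFP cells, and the difference was called in 20. Aminoacyl-tRNA synthetases rose in 14 and 6 of 19, with a called difference in 8. Kpna2 rose by 2.35 in VCAM and 0.68 in YFP cells, a difference of 1.66 (adjusted p = 1.5e-14).

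Markers of vessel cells differed between the responses. All 14 endothelial markers had lower responses in VCAM cells, and in YFP cells 11 rose and 1 fell, with sums of 13002 to 13134 in 36 h ASCs, against 7551 to 8492 in QSCs. Pecam1 rose by 1.22 in YFP cells, a difference of -1.21 from VCAM cells. Pericyte markers had lower responses in 10 of 13. Rgs5, a pericyte marker, fell by 1.56 in VCAM cells and changed by 0.49 in YFP cells. Of the 30 fibronectin, tenascin and crosslinking genes 16 had the higher and 3 the lower response in VCAM cells, among them Lox with a difference of 2.63, and 5 of 7 tenocyte markers had the higher one, Angptl7 with 2.17. Of 19 laminin and linker genes 1 had the higher and 7 the lower response, of 26 collagens 5 and 3, and of 31 proteases and inhibitors 8 and 4. The largest differences of all were those of Usp17ld (4.61), Tmem45a (3.58), Emb (3.35) and AY036118 (3.28). Usp17ld belongs to a family of near-identical deubiquitinase genes, so its probe set may read several of them. Lower responses were led by n-R5s136 (-3.02), a 5S ribosomal RNA gene of which the genome holds many copies, and then by Mir489 and Chrdl2.

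**Figure D4:**
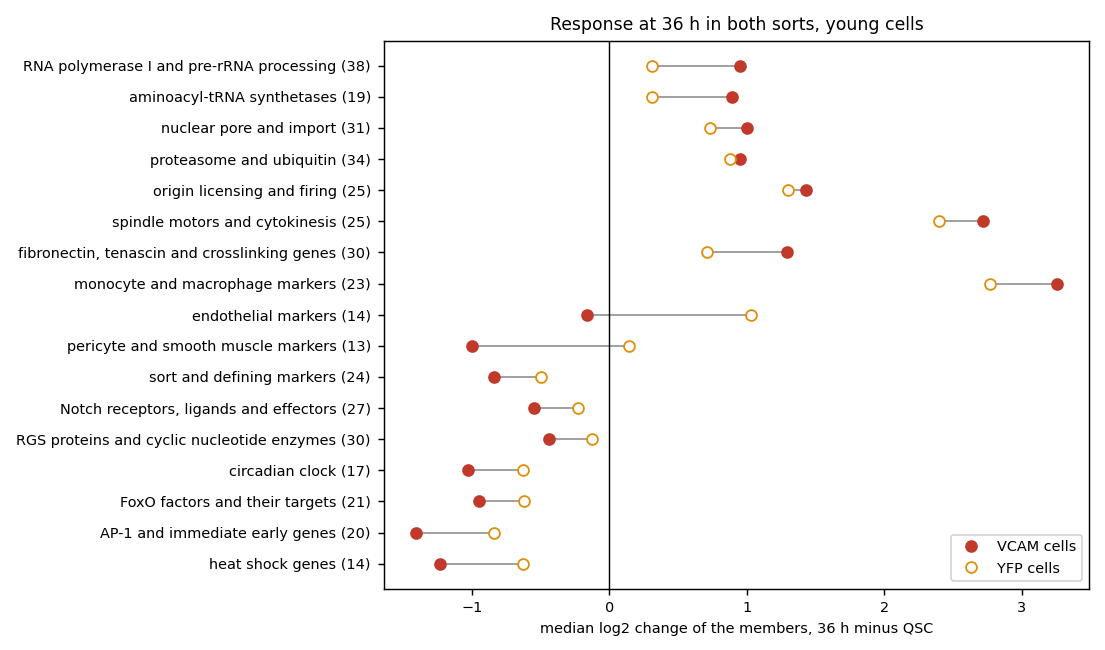
Median log2 change of the measured members, 36 h ASCs minus QSCs (horizontal axis), of 17 gene lists (number measured in brackets) in VCAM cells (filled) and YFP cells (open). The endothelial and pericyte lists lie on opposite sides of 0 in the sorts, and the ribosome list lies at 0.95 in VCAM and 0.31 in YFP cells.

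At 60 h, 1249 genes were higher (6.26%) and 1692 lower (8.49%) than at 36 h in VCAM cells, a comparison that shares the 36 h arrays with the one above. With arrays centred on their medians the split was 1992 and 1384 and the median of all genes was 0.11 in place of 0.00, so the direction over all genes depends on the scaling. Pax7 read 11.60, 11.70 and 11.73 in QSCs, 8.98, 9.05 and 8.83 at 36 h and 9.18, 9.24 and 9.15 at 60 h, and was not called between 36 and 60 h. Calcr changed by -1.57 from 36 to 60 h, Peg3 by 0.79 and Cdh15 by 0.95. Spindle motors were higher at 60 h in 22 of 25, the kinetochore list in 18 of 23 and origin genes in 12 of 25. The ribosome list had no call in either direction among 38 genes, although 25 had risen at 36 h over QSCs. Inflammatory and matrix lists were lower at 60 h, with 22 of 23 macrophage markers, 23 of 28 chemokines, 27 of 30 fibronectin, tenascin and crosslinking genes and 13 of 14 endothelial markers lower. Ccl3 read 6.10, 6.13 and 6.14 in QSCs and 11.79, 11.83 and 11.86 at 36 h, and it was lower by 2.52 at 60 h. Lcn2, an iron-binding lipocalin, changed by 2.79 at 36 h over QSCs and by -3.20 at 60 h over 36 h, and Cxcl13, a B cell chemokine, by 2.51 and -4.36. Twist1 was lower at 60 h, with a change of -1.58.

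**Figure D5:**
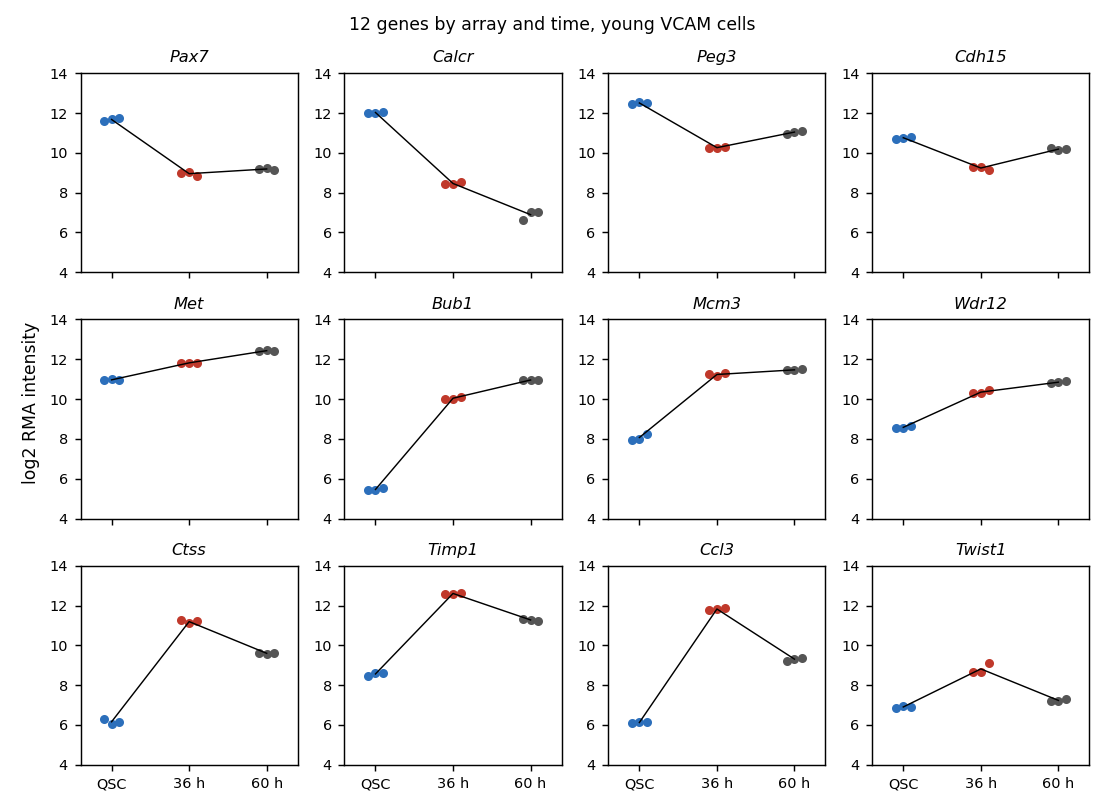
Log2 RMA intensity (vertical axis) of 12 genes in each array of young VCAM cells as QSCs, at 36 h and at 60 h (horizontal axis), with lines through the means of 3 arrays. Bub1, Mcm3 and Wdr12 were higher at 36 h than in QSCs and had changes of 0.92, 0.24 and 0.50 from 36 to 60 h, while Ctss, Timp1, Ccl3 and Twist1 were lower at 60 h than at 36 h.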

How the data were processed

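RNA of the sorted cells was read on the Affymetrix platform Mouse Gene 1.0 ST. The deposited table holds log2 values that the authors made by RMA in Affymetrix Expression Console, per the labels, with versions not given in the sources used here. Of 35556 probe sets, 21789 name 1 gene, 1621 several and 12146 none, and 21698 matched a RefSeq gene by Entrez identifier. The brightest probe set stood for each of 19938 genes. The RMA values were kept without further scaling, with array medians of 7.045 to 7.076 at 36 h and 7.136 to 7.155 in QSCs. The number of arrays limits the precision.

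Means of the 10 groups were fitted to all 30 arrays by the lmFit and eBayes functions of limma 3.58.1 under R 4.3.3 (two-sided, Benjamini-Hochberg over all genes), after a test on simulated data. A gene was called at an adjusted p under 0.05 and a fold of at least 1.5. Alternatives were median centring, quantile normalization, a filter on dim genes, the mean of probe sets, other fold thresholds, limma treat, trend and robust options, a replicate block, only the arrays compared, and leaving out each array. Motifs were counted in Python 3.11.15 with pandas 2.3.3. Named genes were the 15 largest called rises and falls, up to 4 called members of each list, the sort antigens, the 8 largest called differences each way between VCAM and YFP responses, and Pax7, Myf5, Myod1, Myog, Itga7, Cdh15, Cd34, Met, Cdkn1b and Cdkn1c among the fixed names. Genes said to be chosen after their values were seen, and Cx3cr1, Smc4 and the microRNA families, fall outside this rule. The members and lists were chosen with earlier results of these data known.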

Additional observations from a re-analysis of the deposited data

Results flagged for a closer look

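The responses of VCAM and YFP cells at 36 h differed by at least 1.5 on the log2 scale, past the limma test of the difference, for these named genes. Values are VCAM response minus YFP response. Among genes of satellite cells and their niche, Pax7 differed by -1.77, Heyl by -1.99, Dtx4 by -1.59, Chrdl2 by -2.15, Prox1 by -1.67, Clmn by -1.97, Ptprz1 by -1.72 and Kcnn3 by -1.65. Among imprinted and noncoding genes, Zim1 differed by -1.75, Meg3 by -1.63, Mir489 by -2.38 and n-R5s136 by -3.02. Rgs5 of pericytes differed by -2.05, Col15a1 by -1.76, Sgca by -1.61 and the chaperone Hspb1 by -1.59.

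Higher responses in VCAM cells were those of the matrix and secreted genes Lox (2.63), Timp1 (2.35), Angptl7 (2.17), Mmp3 (2.08), Lum (1.66), Cdh11 (1.68) and Sema3a (1.64). The mediators Cxcl13, Cxcl5, Il33 and Pla2g4a differed by 2.75, 2.73, 1.98 and 1.88. Slc7a11, Asns and Kpna2 differed by 1.74, 1.68 and 1.66. Usp17ld differed by 4.61, Tmem45a by 3.58, Emb by 3.35 and AY036118 by 3.28, and of these Usp17ld and Tmem45a fell in YFP cells, with changes of -0.76 and -0.74.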

How the results depend on the processing

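The 36 h calls in VCAM cells numbered 1322 higher and 791 lower at a fold of 2, 5587 and 5572 without a fold threshold, and 1960 and 1253 with limma treat. In YFP cells they were 877 and 343 at a fold of 2, 4781 and 4984 without one, and 1335 and 682 with treat. For the difference between the responses the counts were 229 and 241, 3252 and 2979, and 287 and 306 in the same order. From 36 to 60 h they were 214 and 864 at a fold of 2 and 5348 and 4065 without one, with 477 higher and 1162 lower under treat and 1992 higher after median centring. Leaving out 1 array gave 2564 to 2699 genes higher and 1903 to 2005 lower in VCAM cells. The labels name nothing that same-numbered arrays share, and for that reason the numbers were not taken as pairs. Deviations of same-numbered arrays correlated at -0.053 to 0.163, against -0.229 to 0.107 for other numbers. Of 6 arrays 4 correlated best with their own number, so these correlations are no ground for leaving pairs out. The replicate block left 2641 higher and 1937 lower. The block, the trend and robust options and the fit to only the arrays compared leave the log2 change as it was. They could alter a call only through its p-value, so they say little about calls set by the fold. Most genes were named for their large changes, so the next counts say little about the calls of other genes. Of 200 named genes called at 36 h, 199 kept the call in 13 settings that use the 1.5-fold threshold, the filter on dim genes aside, while 9 lost it under treat and 15 at a fold of 2. The exception was Mir99a, at -0.57 without QSC replicate 3 or 36 h replicate 1, and Myog gained a call at 0.59 without QSC replicate 1 or 36 h replicate 1. Genes near 0 changed sign without a call. Pecam1 was at -0.01 after median centring, -0.11 after quantile normalization and -0.03 to 0.04 with 1 array left out, Cx3cr1 was at -0.02 after quantile normalization and -0.01 to 0.10 with 1 array left out, and Dlk1 was at -0.10 to 0.04 with 1 array left out. In the 100 bases before the start alone, CHR was in 17.2% and NF-Y in 56.9% of promoters of mitotic genes that rose, against 5.77% and 18.9% of all promoters, and E2F in 6.06% of those of replication genes that rose, against 0.846%. The cause of these changes was not tested.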
